A study of Saccharomyces cerevisiae with 24 samples.

Results

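Input RNA of budding yeast (Saccharomyces cerevisiae) lacking RPL22B was compared with input RNA of wild-type yeast, in 2 libraries of each strain out of 24 libraries in the series. The members were chosen by their labels alone, as the 4 input libraries of the strains ΔRPL22B and WT in the table of reads per gene. The series also holds a strain lacking RPL22A and, for each of the 3 strains, RNA from monosome, light polysome and heavy polysome fractions of sucrose gradients. All cultures were in log phase at an OD of 0.6 to 0.8 and received cycloheximide, an inhibitor that stalls translating ribosomes. The labels name the strain as WT or deltaRPL22B and give no strain background, mating type, nutritional marker or cassette that replaced the gene. Genes that follow mating type and genes used as auxotrophic markers were set apart, in order to ask how much of the remaining transcriptome stayed unchanged and how large an effect the data still allow.

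RPL22B and its paralog RPL22A encode closely similar forms of Rpl22, a protein of the large ribosomal subunit, and most ribosomal protein genes of budding yeast exist as such pairs. A haploid cell has mating type a or α. In α cells the α1 protein switches on the α-specific genes, and the α2 protein, together with Mcm1, shuts off the a-specific genes, so that each type makes its own pheromone and the receptor for the other's. Laboratory strains of either mating type often carry different auxotrophic mutations, such as those in the genes LYS2, needed for lysine, and MET17, needed for methionine.

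The promoters of the a-specific genes carry the operator at which α2 and Mcm1 act, and are shown because every one of these genes was lower in ΔRPL22B. The core motif CATGTAA was searched on both strands in the 400 bases before each start codon of the R64 genome (the sacCer3 assembly). It was found in 7 of 7 a-specific promoters and in 295 of 6007 promoters of all genes (4.91%). The Mcm1 box was found in 7 of 7 and in 39.7% of all promoters. In each of the 7 a box lay close to a CATGTAA match without overlapping it. The sequences below run 5′ to 3′ toward the start codon, with the CATGTAA match, read on either strand, in capitals. A match describes the letters and is no evidence of binding in these cells.
MFA1, chrIV:1384942-1384996, plus strand: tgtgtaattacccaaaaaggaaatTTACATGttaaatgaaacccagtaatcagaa
MFA2, chrXIV:352163-352217, plus strand: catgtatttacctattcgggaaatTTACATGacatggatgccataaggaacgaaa
STE2, chrVI:82327-82381, plus strand: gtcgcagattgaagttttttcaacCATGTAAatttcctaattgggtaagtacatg
STE6, chrXI:46477-46531, minus strand: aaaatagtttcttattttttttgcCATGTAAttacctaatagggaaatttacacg
BAR1, chrIX:322054-322131, plus strand: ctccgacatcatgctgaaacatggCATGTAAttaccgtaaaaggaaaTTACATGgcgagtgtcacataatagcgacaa
AGA2, chrVII:437101-437155, minus strand: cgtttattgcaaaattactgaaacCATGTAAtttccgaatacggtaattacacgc
ASG7, chrX:101881-101935, minus strand: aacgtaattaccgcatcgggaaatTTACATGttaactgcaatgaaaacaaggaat

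The 4 libraries held 3277865 to 5241664 counts. Rows at the ribosomal DNA locus took 73.4% and 88.3% of them in wild-type replicates 1 and 2, and 73.3% and 71.0% in ΔRPL22B. This left 891391 and 611934 counts for all other genes in wild type and 876153 and 1165282 in ΔRPL22B, so that wild-type replicate 2 was the shallowest. Outside the ribosomal DNA, the duplicates' counts varied beyond counting error (chi-square over its degrees of freedom 1.99 in wild type and 1.83 in ΔRPL22B), and each library counted as 1 replicate. Nothing in the labels beyond biological duplicates says how cultures were separated. Unless another fit is named, p-values and standard errors rest on the spread between duplicate libraries pooled over all 12 strain and pool groups. Levels are given in CPM, counts scaled to 1000000 of the library size after TMM scaling, and differences as log2 fold changes of ΔRPL22B against wild type ± standard error, with n = 2 libraries per strain. A gene was called when its adjusted p, from edgeR's quasi-likelihood test with Benjamini-Hochberg adjustment over 5380 genes, was under 0.05. RNA was measured in bulk, so fewer cells of a type and less RNA per cell cannot be told apart.

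Of the 5380 genes tested, 18 were called (0.335%), 8 higher (0.149%) and 10 lower (0.186%) in ΔRPL22B. Of these 18 genes, 15 belonged to those set apart, and the other 3 were SHB17, AGA1 and LYS9. The plot of fold change against mean level shows the 18 genes outside a band that held nearly all others.

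**Figure D1:**
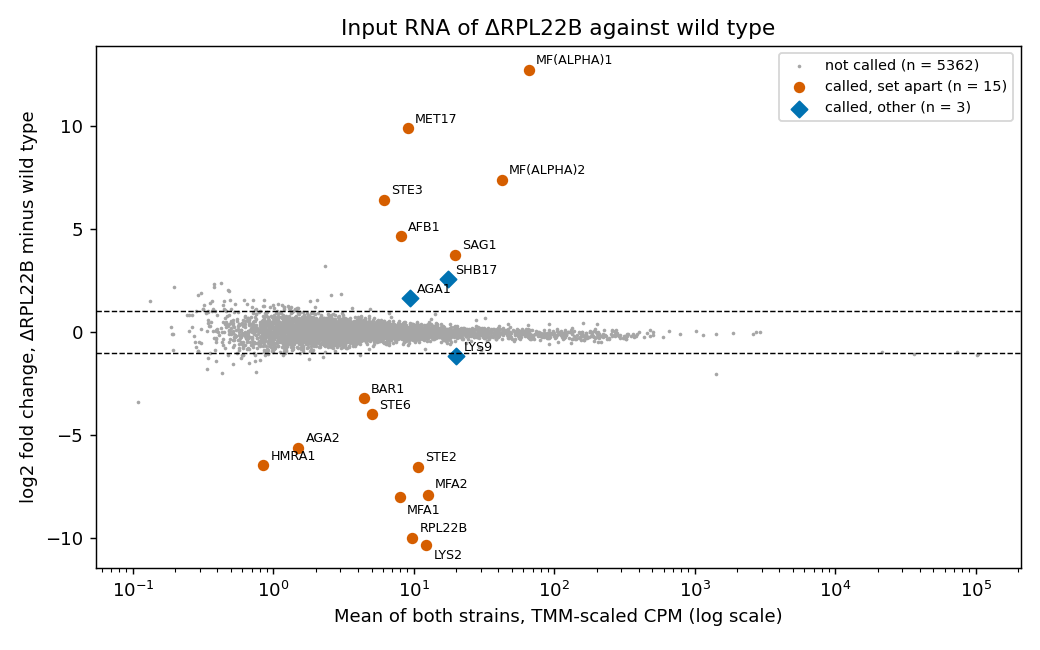
Fitted log2 fold change (ΔRPL22B minus wild type, input RNA) against the mean TMM-scaled CPM of both strains on a log axis, 1 point per tested gene, with dashed lines at 2-fold. The 15 called genes set apart (orange) lie far above or below the lines, the 3 other called genes (blue diamonds) closer to them, and 5362 genes were not called (grey).

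The deleted gene checks the labels. RPL22B, with the systematic name YFL034C-A, lies on chromosome VI from 64243 to 64932 and had 207 and 124 counts in wild type and 0 in both ΔRPL22B libraries. Both wild-type libraries stood far above both deletion libraries. Its level fell from 20.9 and 17.9 CPM to 0, at least 157-fold lower when a floor of 3 counts is set for both deletion libraries together (adjusted p = 1.15e-10, edgeR). Floors and counting intervals cover counting error only. RPL22A (YLR061W) had 3 and 5 counts in wild type and 6 and 17 in ΔRPL22B, too few to be tested. These counts are far below those of the other paralog, and no source used here states how reads shared by paralogs were divided, so they do not show whether the remaining paralog changed.

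The genes next to the deletion were not called. MOB2, which encodes a kinase partner protein and lies 249 bases from RPL22B, stood at 4.45 and 5.06 CPM in wild type and at 3.53 and 3.85 CPM in ΔRPL22B, a difference of -0.35 ± 0.38 with a 95% interval from -1.13 to 0.43. MIL1, 544 bases away on the other side, stood at 3.34 and 4.19 CPM against 4.90 and 4.94 CPM, a difference of 0.40 ± 0.31 with an interval from -0.23 to 1.03. Groups of both genes did not overlap, in opposite directions and as in 35.7% of all tested genes, and both intervals reach past 2-fold.

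All 7 a-specific genes were lower in ΔRPL22B and 6 of them fell. Their summed level was 87.6 and 79.9 CPM in wild type and 1.86 and 2.25 CPM in ΔRPL22B. MFA1, which encodes a precursor of the a-factor pheromone, had 166 and 104 counts against 0 and 1, a depth-corrected ratio of 385 with a 95% counting interval of 68.6 to 15270 (adjusted p = 6.36e-10, edgeR). MFA2, the second a-factor gene, had 273 and 155 counts against 2 and 0 (adjusted p = 2.53e-09, edgeR). STE2, the receptor by which a cells sense α-factor, fell from 21.5 and 20.7 CPM to 0.0981 and 0.290 CPM, a log2 difference of -6.55 ± 0.67 (adjusted p = 1.0e-10, edgeR). In each of these genes the wild-type libraries resembled each other and the deletion libraries were at or near 0.

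The other a-specific genes act in export, pheromone breakdown, adhesion and signalling. STE6, the transporter that exports a-factor, fell from 8.90 and 10.3 CPM to 0.294 and 0.798 CPM, a difference of -4.01 ± 0.47 (adjusted p = 7.81e-08, edgeR). BAR1, a secreted protease that degrades α-factor, fell from 8.70 and 7.23 CPM to 0.981 and 0.726 CPM, a difference of -3.22 ± 0.45 (adjusted p = 9.24e-06, edgeR). AGA2, the binding subunit of a-agglutinin, had 29 and 21 counts against 0 and 1, a ratio of 71.3 with a counting interval of 12.2 to 2873 (adjusted p = 3.86e-05, edgeR). ASG7, which regulates signalling in a cells, had 11 and 9 counts against 3 and 4, a difference of -1.96 ± 0.75 that did not pass (adjusted p = 0.999). Its groups did not overlap, and at these low counts its 95% interval was wide, from -3.51 to -0.42.

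All 5 α-specific genes rose, with a summed level of 3.44 and 4.48 CPM in wild type and 289 and 272 CPM in ΔRPL22B. MF(ALPHA)1, which encodes most of the α-factor pheromone, had 0 counts in both wild-type libraries and 1346 and 1814 in ΔRPL22B, at least 738-fold higher (adjusted p = 4.16e-11, edgeR). MF(ALPHA)2, the minor α-factor gene, rose from 0.405 and 0.578 CPM to 90.5 and 78.0 CPM, by 7.40 ± 0.63 (adjusted p = 1.03e-10, edgeR). STE3, the a-factor receptor of α cells, had 0 and 2 counts against 121 and 168, a ratio of 101 with a counting interval of 27.8 to 840 (adjusted p = 2.09e-09, edgeR). Both deletion libraries therefore carried pheromone and receptor transcripts that were at or near 0 in wild type.

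The remaining α-specific genes were detected in both wild-type libraries, as MF(ALPHA)2 was. SAG1, which encodes α-agglutinin, rose from 2.43 and 3.04 CPM to 38.7 and 34.6 CPM, by 3.75 ± 0.34 (adjusted p = 6.22e-09, edgeR). AFB1, which encodes an a-factor barrier protein, rose from 0.607 and 0.578 CPM to 16.0 and 15.2 CPM, by 4.67 ± 0.50 (adjusted p = 5.85e-09, edgeR). The row for HMRA1, annotated at the silent a cassette and identical in sequence to the gene expressed at the mating-type locus of a cells, had 15 and 13 counts in wild type and 0 in ΔRPL22B, at least 13.3-fold lower (adjusted p = 0.00357, edgeR). That call was lost in DESeq2 (adjusted p = 0.9999) and without ΔRPL22B replicate 2 (adjusted p = 0.095). MATALPHA2 had 1 count in the 4 libraries together, and HMRA2, HMLALPHA1, HMLALPHA2 and MATALPHA1 were not analysed here.

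**Figure D2:**
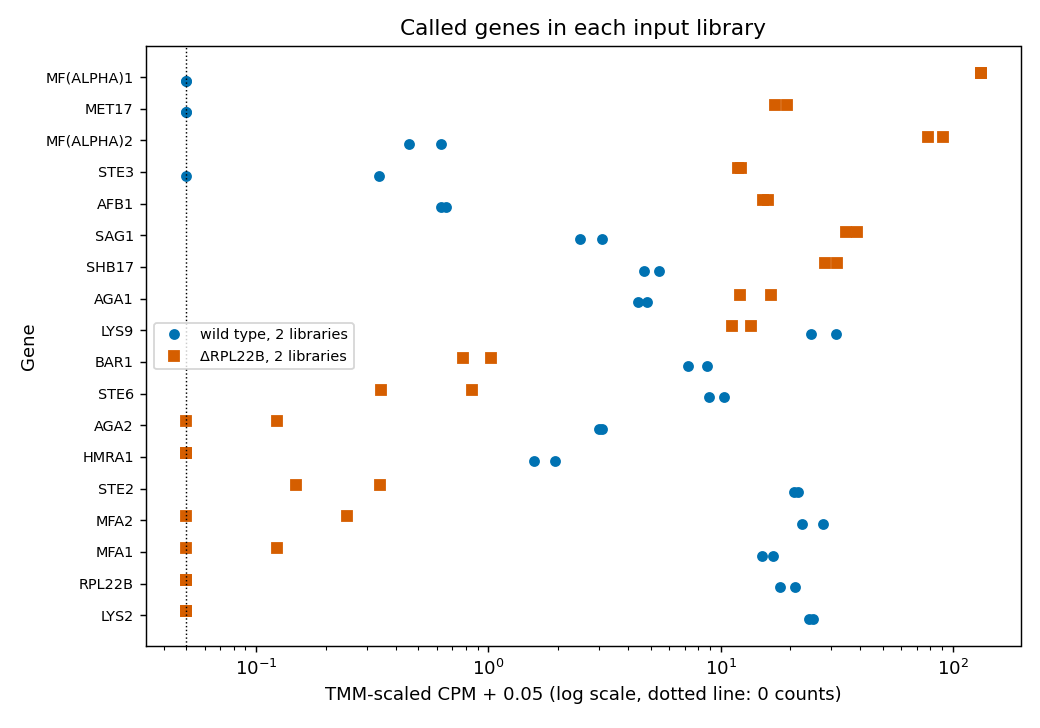
TMM-scaled CPM plus 0.05 on a log axis for the 18 called genes in each of the 4 input libraries (blue circles wild type, orange squares ΔRPL22B, dotted line 0 counts). The duplicates of a strain lie close together beside the gap between strains. The gap is narrowest for LYS9, with 24.5 and 31.2 CPM in wild type and 13.5 and 11.2 CPM in ΔRPL22B.

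Among the auxotrophic markers, 2 genes differed completely between the strains. LYS2, which encodes the α-aminoadipate reductase of lysine synthesis, had 247 and 166 counts in wild type and 0 in both ΔRPL22B libraries, at least 196-fold lower (adjusted p = 8.87e-11, edgeR). MET17, the O-acetylhomoserine sulfhydrylase that fixes sulfur for methionine and cysteine, had 0 counts in wild type and 197 and 235 in ΔRPL22B, at least 101-fold higher (adjusted p = 2.53e-10, edgeR). The strains thus differ in a lysine gene, a methionine gene and most tested mating-type genes besides RPL22B, and with these labels the deletion and those differences cannot be told apart in any gene below.

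The other 5 markers with a row were not called. HIS3, a histidine gene often used to replace deleted genes, stood at 7.89 and 8.10 CPM in wild type and 7.75 and 7.77 CPM in ΔRPL22B, a difference of -0.04 ± 0.31 with a 95% interval from -0.67 to 0.59. The range of fold changes allowed for it is 0.628 to 1.5. CAN1 and LYP1, which import arginine and lysine, differed by -0.01 ± 0.25 and -0.04 ± 0.30. ADE2 of adenine synthesis differed by -0.09 ± 0.28 and TRP1 of tryptophan synthesis by 0.36 ± 0.40, whose interval alone among these 5 reached past 2-fold. LEU2 and URA3 were not analysed here.

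Of the 5359 genes outside the set-apart lists, 3 were called. SHB17 (YKR043C, chromosome XI, 520897 to 521712), the sedoheptulose bisphosphatase that feeds carbon from glycolytic intermediates toward ribose, stood at 5.36 and 4.63 CPM in wild type and at 28.1 and 31.6 CPM in ΔRPL22B. The duplicates agreed closely and the groups were far apart. It rose 5.94-fold (log2 2.57 ± 0.32, 95% interval 1.91 to 3.23, adjusted p = 7.38e-06, edgeR), and the call held without each library in turn, with adjusted p from 5.98e-05 to 0.00209. No other gene of the pentose phosphate list was called, and 7 of its 10 tested members had intervals within 2-fold. The list's largest other difference was in TKL2, a transketolase paralog, at 2.63 and 2.46 CPM against 1.18 and 0.871 CPM (-1.32 ± 0.49, adjusted p = 0.999). TKL2 lies 465 bases from LYS2.

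AGA1 (YNR044W, chromosome XIV, 703699 to 705876), the anchor subunit of a-agglutinin, which pheromone induces in cells of either mating type, rose from 4.35 and 4.77 CPM to 16.4 and 12.05 CPM. The fold was 3.11 (log2 1.64 ± 0.32, 95% interval 0.97 to 2.30, adjusted p = 0.0075, edgeR). The groups did not overlap. The call was lost without ΔRPL22B replicate 1 (adjusted p = 0.309), without wild-type replicate 1 (0.365) and without wild-type replicate 2 (0.169), with estimates from 1.4 to 1.68 in these fits.

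AGA1 belongs to a list of 26 haploid and pheromone-response genes, of which 24 were tested. It was the only member called, beside 0.335% of all tested genes. An unadjusted p under 0.05 (edgeR) was found for 8 of the 24, beside 1.47% of all tested genes. Of the estimates 19 were positive, and the median difference was 0.35 beside 0.0038 over all tested genes. This list was chosen with earlier results of these data known. FAR1, which arrests the cell cycle on pheromone, stood at 10.01 and 9.97 CPM against 17.9 and 18.4 CPM, a difference of 0.86 ± 0.24 (adjusted p = 0.312, edgeR). FUS1, a cell fusion gene, stood at 1.11 and 0.867 CPM against 3.53 and 2.61 CPM, a difference of 1.58 ± 0.48 (adjusted p = 0.371). Groups of both genes did not overlap, as in 35.7% of all tested genes, and neither passed.

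FIG2, a cell wall adhesin of mating cells, differed by 1.10 ± 0.33 (adjusted p = 0.486, edgeR) and SST2, which switches off the pheromone-receptor G protein, by 0.66 ± 0.26 (adjusted p = 0.999). In the fit of only the 4 compared libraries, whose spread is smaller, FAR1, FUS1, FIG2 and SST2 passed as well, with adjusted p of 0.000152, 0.016, 0.00446 and 0.0179. Among the signalling genes of the list none passed. GPA1, the Gα subunit, stood at 4.55 and 6.51 CPM against 7.35 and 8.27 CPM (0.52 ± 0.31), and STE18, the Gγ subunit, at 1.21 and 0.578 CPM against 1.37 and 2.18 CPM (0.93 ± 0.57). STE20 and STE7, kinases of the cascade, differed by 0.10 ± 0.28 and 0.18 ± 0.40, FUS3, the kinase at its end, by 0.07 ± 0.27, STE4, the Gβ subunit, by -0.33 ± 0.25, and STE12, the transcription factor, by 0.35 ± 0.37.

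The pheromone response motif TGAAACA, which Ste12 recognises, was found on either strand within 400 bases of the start codon in 15 of 26 promoters of this list, and in 9.87% of all promoters. It was also found in FUS3, STE7, STE4, STE12 and STE18, whose differences are given above. KAR4 held 2 matches and differed by 0.80 ± 0.30 (adjusted p = 0.999, edgeR). FAR1 had no match in this window. The stretches of AGA1, which was called, and of FUS1, FIG2 and SST2, which passed in the fit of the 4 compared libraries, are shown with the motif in capitals, and no relation between the motif and the differences was tested.
AGA1, chrXIV:703485-703515, plus strand: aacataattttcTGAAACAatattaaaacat
FUS1, chrIII:71604-71661, plus strand: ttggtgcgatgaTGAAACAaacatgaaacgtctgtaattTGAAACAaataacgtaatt
FIG2, chrIII:267068-267098, plus strand: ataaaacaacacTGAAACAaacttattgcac
SST2, chrXII:1041593-1041623, minus strand: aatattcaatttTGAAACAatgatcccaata

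LYS9 (YNR050C, chromosome XIV, 714048 to 715388), the saccharopine dehydrogenase of the late lysine pathway, was the only called gene outside the set-apart lists that fell. It stood at 24.5 and 31.2 CPM in wild type and 13.5 and 11.2 CPM in ΔRPL22B, 2.25-fold lower (log2 -1.17 ± 0.24, 95% interval -1.67 to -0.67, adjusted p = 0.0149, edgeR). The groups did not overlap. The call was lost without ΔRPL22B replicate 1 (adjusted p = 0.13), without ΔRPL22B replicate 2 (0.845) and without wild-type replicate 2 (0.7), with estimates from -1.31 to -1.01.

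The other genes of lysine synthesis did not pass, although 7 of 8 estimates, LYS9 included, were below 0 and the list's median was -0.39. With relative log expression scaling all 8 were below 0. LYS20, a homocitrate synthase at the entry to the pathway, stood at 40.8 and 37.6 CPM against 21.7 and 21.0 CPM, a difference of -0.88 ± 0.25 (adjusted p = 0.312, edgeR). It passed among the 4 compared libraries alone (adjusted p = 5.62e-07) and among the 6 input libraries (0.0344). LYS12, the homoisocitrate dehydrogenase, stood at 18.9 and 22.1 CPM against 14.5 and 13.7 CPM (-0.54 ± 0.24, adjusted p = 0.999). LYS14, which encodes the activator of the pathway, differed by 0.02 ± 0.33, and LYS5, which activates the Lys2 enzyme, by -0.09 ± 0.53.

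Lys14 is known to bind elements holding TCCNNNGGA, a motif that reads alike on both strands. It was found in 5 of 8 promoters of the lysine list and in 4.61% of all promoters, and LYS9 was 1 of 7 genes in the genome with 2 or more matches. LYS9 and LYS12 are shown with the motif in capitals, as the members with a match that had the smallest p. LYS1, LYS21 and LYS14 also held it, with differences of -0.43 ± 0.36, -0.32 ± 0.25 and 0.02 ± 0.33, and LYS20 had no match in the window.
LYS9, chrXIV:715531-715625, minus strand: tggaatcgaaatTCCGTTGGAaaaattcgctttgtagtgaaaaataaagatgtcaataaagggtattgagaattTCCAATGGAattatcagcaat
LYS12, chrIX:187794-187826, minus strand: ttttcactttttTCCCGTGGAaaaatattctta

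**Figure D3:**
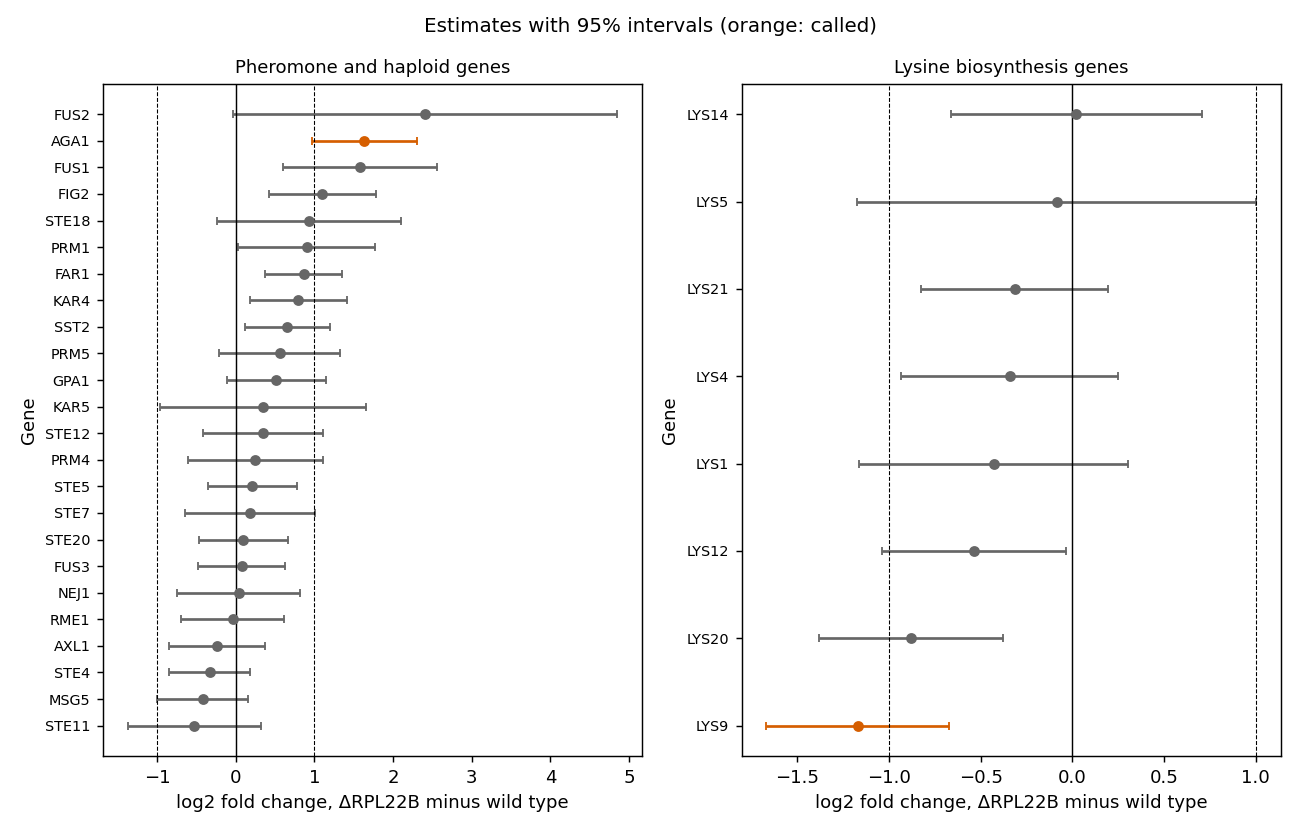
Log2 fold changes (ΔRPL22B minus wild type) with 95% intervals for the tested pheromone and haploid genes (left) and lysine genes (right), called genes in orange, dashed lines at 2-fold. AGA1 at 1.64 and LYS9 at -1.17 are the called genes, and most other intervals include 0.

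Of 27 tested neighbours of the called set-apart genes, 0 were called by edgeR. An unadjusted p under 0.05 was found for 5 of the 27, beside 1.47% of all tested genes. Among their estimates 13 were positive, and the median was -0.0026. Groups did not overlap in 17 of the 27 (63.0%), beside 35.7% of all tested genes. Neighbours described here other than those of LYS2 and MET17 were chosen after their values were seen. LIF1, a DNA repair gene 206 bases from MF(ALPHA)2, stood at 1.31 and 1.30 CPM in wild type and 5.20 and 4.28 CPM in ΔRPL22B (1.83 ± 0.47, adjusted p = 0.102, edgeR). LIF1 passed without the low-count filter (adjusted p = 0.0081), in the fit of the 6 input libraries (0.001) and in that of the 4 compared libraries (8.05e-05). NFG1, 383 bases from AFB1, stood at 1.11 and 0.723 CPM against 2.84 and 2.61 CPM (1.51 ± 0.42, adjusted p = 0.178), and passed among the 4 compared libraries (0.042). The latter 2 values are from edgeR. Groups of both genes did not overlap, as in 35.7% of all tested genes. On the other side of MF(ALPHA)2 YGL088W differed by 0.06 ± 0.60, and on that of AFB1 RIC1 by -0.06 ± 0.36. Beside SAG1 and STE3, which rose as well, MRX12 differed by -0.49 ± 0.38 and COY1 by -0.28 ± 0.47. Across from these, APL1 beside SAG1 differed by 0.38 ± 0.30 and LST4 beside STE3 by 0.20 ± 0.30. POS5 beside MF(ALPHA)1 differed by 0.71 ± 0.35. Groups of MRX12, COY1, APL1, LST4 and POS5 did not overlap.

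ACO1, the mitochondrial aconitase 1335 bases from MET17, stood at 19.7 and 29.6 CPM in wild type and 36.8 and 42.9 CPM in ΔRPL22B (0.70 ± 0.26, adjusted p = 0.999, edgeR). ACO1 was called in the fit of the 4 compared libraries (adjusted p = 0.000457, edgeR). GYP8, 667 bases from STE2, differed by -1.2 ± 0.46 (adjusted p = 0.999). On the other sides, HRI1 beside MET17 differed by -0.10 ± 0.37 and RAD16 beside LYS2 by 0.03 ± 0.34. No source used here states whether counting used strand, so reads running past one gene into the next were not separated from a change of the neighbour.

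The rest of the transcriptome was then bounded gene by gene, by asking whether the whole 95% interval of the log2 fold change lay inside a given fold. Among the 5359 genes outside the set-apart lists the median difference was 0.0042, the median size of the difference was 0.18, and 95% of the estimates lay between -0.65 and 0.74. Estimates within 1.5-fold were obtained for 92.0% of these genes and estimates past 2-fold for 98 (1.83%). The intervals are wider than the scatter of the estimates. They lay wholly within 1.5-fold for 176 genes (3.28%), within 2-fold for 2979 (55.6%) and within 4-fold for 5140 (95.9%), which leaves 219 genes for which a 4-fold change in some direction was not bounded. Over all tested genes the share within 2-fold was 55.4%.

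The bound depended on the level of the gene. In the least abundant tercile, with mean levels of 0.108 to 2.57 CPM, 14.0% of 1791 genes were bounded within 2-fold and 88.3% within 4-fold. In the middle tercile, up to 6.30 CPM, the shares were 64.9% and 99.9% of 1789 genes. In the most abundant tercile 88.1% of 1779 genes were bounded within 2-fold and 99.6% within 4-fold, and 9.72% within 1.5-fold. The median half-width of the interval was 1.001, 0.72 and 0.61 on the log2 scale in these terciles. For most genes of the least abundant tercile these libraries did not bound the difference within 2-fold.

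**Figure D4:**
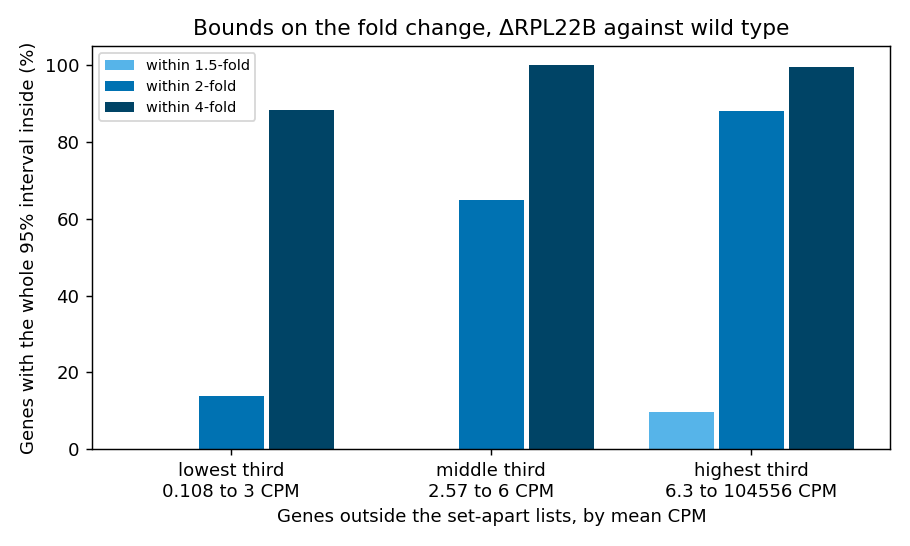
Share of genes outside the set-apart lists whose whole 95% interval of the fold change lies within 1.5-fold, 2-fold or 4-fold, in terciles of mean CPM, bars starting at 0. The share within 2-fold rises from 14.0% to 64.9% and 88.1% with expression, and few genes in any tercile are bounded within 1.5-fold.

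The count of genes bounded depends on the spread used. The spread was pooled over the duplicates of all 12 strain and pool groups, since 2 libraries per strain give little of their own. In a fit of the 4 compared libraries alone, 3978 of 5054 tested genes (78.7%) were bounded within 2-fold, and 1823 within 1.5-fold against 177 of all tested genes in the pooled fit. In that fit 39 genes were called, 25 of them outside the set-apart lists, and 17 were shared with the 18. In the pooled fit, leaving out 1 of the 4 compared libraries lowered the genes bounded within 2-fold from 2983 of all tested to between 1411 and 1676.

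Strain differences were about as large as differences between duplicates. Over the 5359 genes the SD of the difference in log2(CPM + 2) was 0.258 between the wild-type libraries and 0.212 between the ΔRPL22B libraries, and 0.229 to 0.263 between libraries of different strains. The mean of the 4 between-strain values was 1.06 times the mean within strains. Without the ribosomal DNA rows, where CPM values are larger and the added 2 CPM weighs less, the SDs were 0.429 and 0.352 within strains and 0.376 to 0.433 between them. Among the 1125 genes at 10 CPM or more on average the values were 0.238 and 0.179 within strains and 0.224 to 0.262 between them. Unadjusted p-values under 0.05 (edgeR) were obtained for 1.47% of all tested genes in the pooled fit, below the chance share of 5%. The share was 2.87% in the fit of the 6 input libraries and 7.58% in that of the 4 compared libraries, so it depends on the spread used. Groups did not overlap in 35.7% of all tested genes.

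Of the 5356 uncalled genes outside the set-apart lists, 95 had estimates past 2-fold, in 80 of which the groups did not overlap. YLR157C-B, a Ty element row, was the only uncalled gene counted in both strains whose whole interval lay past 2-fold, and it rested on 74 counts in ΔRPL22B replicate 1 beside 4 and 3 in wild type and 16 in replicate 2 (adjusted p = 0.209, edgeR). Among 1123 uncalled genes averaging 10 CPM or more, 988 (88.0%) were bounded within 2-fold and 6 were not bounded within 4-fold. These 6 were all rows at the ribosomal DNA locus, with the highest counts in wild-type replicate 2. YLR154W-F, for example, had 14947 and 21124 counts in wild type and 6625 and 6190 in ΔRPL22B, so that wild-type replicate 1 was also above both deletion libraries. It was called in the fit of the 4 compared libraries (adjusted p = 6.47e-16, edgeR) and in that of the 6 input libraries (0.000181).

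By the rule for the largest uncalled differences at 10 CPM or more, the positive side held FAR1, ACO1 and SST2, described above, and WHI3, PHD1 and ENO1. WHI3, an RNA-binding regulator of cell size, differed by 0.50 ± 0.29, PHD1, a transcription factor of filamentous growth, by 0.48 ± 0.28, and ENO1, an enolase, by 0.46 ± 0.35. The negative side held 5 ribosomal DNA rows and LYS20. No uncalled difference at this level outside the ribosomal DNA thus exceeded 0.88 in size with groups that did not overlap.

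The genes with the narrowest intervals show the closest bound these libraries give. IMD3, an IMP dehydrogenase of guanine nucleotide synthesis, stood at 62.7 and 57.4 CPM in wild type and 58.2 and 61.8 CPM in ΔRPL22B, with an interval from -0.47 to 0.47. DYS1, deoxyhypusine synthase, stood at 38.7 and 36.9 CPM against 39.3 and 39.3 CPM, with an interval from -0.42 to 0.53. TCP1, a chaperonin subunit, SRP1, the importin α, MCA1, a metacaspase, and SRM1, the exchange factor of the Ran GTPase, had differences of 0.04, 0.01, -0.10 and -0.23, each ± 0.23.

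Genes commonly used as references were also close to equal. Of 15 tested, 0 were called by edgeR, DESeq2 or limma-voom, 0 had an unadjusted p under 0.05, and 14 were bounded within 2-fold. ACT1, which encodes actin, stood at 269 and 260 CPM in wild type and 269 and 281 CPM in ΔRPL22B, a difference of 0.06 ± 0.30. PDA1, a pyruvate dehydrogenase subunit, stood at 51.5 and 55.2 CPM against 53.0 and 53.3 CPM. The exception was ALG9, a mannosyltransferase, at 3.64 and 4.77 CPM against 6.08 and 5.59 CPM, whose interval of -0.09 to 1.05 just passed 2-fold.

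Ribosomal protein genes other than RPL22B were not called, and most of their estimates were negative. Of 78 tested genes of the large subunit, 1 fell, RPL22B, 75 estimates were negative and the median was -0.21. Of 56 genes of the small subunit, 0 were called by edgeR, DESeq2 or limma-voom, 0 had an unadjusted p under 0.05, 51 estimates were negative and the median was -0.20. The medians stayed between -0.17 and -0.24 in every scaling, tool and set of libraries tried. The summed level of the small subunit was 10870 and 10729 CPM in wild type and 9642 and 9261 CPM in ΔRPL22B, and that of the large subunit 13044 and 12861 against 11336 and 11028 CPM. Groups did not overlap in 57 large-subunit and 43 small-subunit genes, where 35.7% of all tested genes did not overlap. Whole intervals lay within 2-fold for 34 and 26 of them. In the fit of the 4 compared libraries, 32 large-subunit genes, RPL22B included, and 22 small-subunit genes had an unadjusted p under 0.05 (edgeR). The share of all tested genes in that fit was 7.58%.

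Single ribosomal protein genes showed the size of these differences. RPL34B stood at 144 and 169 CPM in wild type and 106 and 111 CPM in ΔRPL22B (-0.53 ± 0.39), RPS17B at 104 and 115 against 71.3 and 77.5 CPM (-0.56 ± 0.48) and RPS6B at 218 and 262 against 165 and 178 CPM (-0.48 ± 0.39), each with an adjusted p of 0.999 from edgeR. All 3 had groups that did not overlap. RPL28 stood at 23.4 and 49.7 CPM against 24.8 and 19.2 CPM, so that its difference of -0.73 ± 0.50 rested on wild-type replicate 2. In the fit of the 4 compared libraries 4 large-subunit genes besides RPL22B (RPL28, RPL34B, RPL42A and RPL42B) and 3 small-subunit genes (RPS6A, RPS6B and RPS17B) were called lower. Most are paralogs with near-identical copies, whose split of reads is uncertain.

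Lists for other processes held no called gene. Of 78 genes of ribosome biogenesis, the assembly pathway that supplies new subunits, 76 were bounded within 2-fold and the median was -0.07. NOP7, a factor of large-subunit assembly, stood at 28.9 and 29.9 CPM in wild type and 21.1 and 22.7 CPM in ΔRPL22B (-0.42 ± 0.29). Of 21 chaperones 19 were bounded within 2-fold, of 27 oxidative stress genes 21, of 21 genes of glycolysis and fermentation 17, of 22 genes of leucine, uracil and histidine synthesis 19, and of 22 genes of arginine synthesis and the Gcn4 response 18. In these 6 lists 0 genes were called by edgeR, DESeq2 or limma-voom and 0 had an unadjusted p under 0.05. The medians of the last 5 lay between -0.07 and 0.02.

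Methionine and sulfur genes are of interest beside MET17, which is not on that list. Of 30 tested genes 0 were called by edgeR, DESeq2 or limma-voom, 0 had an unadjusted p under 0.05, 17 were bounded within 2-fold, and the median was -0.16. SAM2, which makes S-adenosylmethionine, stood at 25.1 and 19.8 CPM in wild type and 16.1 and 17.6 CPM in ΔRPL22B (-0.41 ± 0.26), and MET3, the ATP sulfurylase, at 1.92 and 2.60 against 3.43 and 3.12 CPM (0.55 ± 0.37). Of 29 general stress genes, mostly at low levels, 0 were called by any of the 3 tools, 1 had an unadjusted p under 0.05 (DDR48, a stress-induced protein, 1.2 ± 0.57) and 10 were bounded within 2-fold.

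Smaller lists also held no called gene. Of 17 phosphate genes 0 were called by edgeR, DESeq2 or limma-voom and 11 were bounded within 2-fold. PHO12, an acid phosphatase with a near-identical copy in PHO11, stood at 16.1 and 14.6 CPM against 10.4 and 6.97 CPM (-0.83 ± 0.30, unadjusted p = 0.00975, adjusted p = 0.999). It was called in the fit of the 4 compared libraries (adjusted p = 0.000457). Of 20 histone and cyclin genes 0 were called by these tools, 0 had an unadjusted p under 0.05 and 15 were bounded within 2-fold. All 6 tested mitochondrially encoded genes had positive estimates with a median of 0.67, 0 were called by these tools, 0 had an unadjusted p under 0.05, and 1 was bounded within 2-fold. ATP6, an ATP synthase subunit, stood at 2.73 and 1.16 CPM against 2.75 and 4.43 CPM, so that wild-type replicate 2 was the lowest. Without that library the median of the 6 was 0.40, with 2 estimates below 0, and without ΔRPL22B replicate 2 it was 0.39, with 1 below 0.

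The same strains were measured in 3 further pools, whose libraries do not enter the input fold changes but share the model and its pooled spread. Called genes numbered 19 in monosomes (0.353%), 19 in light polysomes (0.353%) and 17 in heavy polysomes (0.316%), of which 4, 4 and 3 were outside the set-apart lists. Of the 18 genes called in input, 16, 17 and 15 passed in the same direction in these pools, and 14 passed in all of them. The 4 others were SHB17, AGA1, LYS9 and AGA2.

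SHB17 was higher in every pool, by 1.32 ± 0.33 in monosomes (adjusted p = 0.107, edgeR), 2.78 ± 0.35 in light polysomes (4.73e-06) and 3.82 ± 0.36 in heavy polysomes (2.51e-08). AGA1 rose by 2.72 ± 0.60 in monosomes (adjusted p = 0.0155) and 3.14 ± 0.59 in light polysomes (0.000252), and its difference in heavy polysomes was 1.23 ± 0.53 (0.961). LYS9 passed in no other pool, with differences of -0.78 ± 0.26, -0.92 ± 0.25 and -0.81 ± 0.24. A neighbour each of MF(ALPHA)2, MF(ALPHA)1 and AFB1 was called in some pools, whereas YGL088W and RIC1 were called in none. LIF1 rose in light polysomes (4.21 ± 0.96, adjusted p = 0.000291). POS5, an NADH kinase gene 997 bases from MF(ALPHA)1, rose in monosomes (2.57 ± 0.40, 0.00015) and heavy polysomes (2.38 ± 0.52, 0.0108), and NFG1 in the same pools (2.07 ± 0.49, 0.049, and 2.80 ± 0.69, 0.0129).

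Whether the strain difference changed between a pool and input was tested as an interaction in the same edgeR model. It was called for 0 of 5380 genes in monosomes, light polysomes and heavy polysomes. An unadjusted p under 0.05 was found for 94, 114 and 122 genes (1.75%, 2.12% and 2.27%), below the chance share of 5%. The median standard error of the interaction was 0.60, 0.57 and 0.60 on the log2 scale. The lack of calls therefore does not show that the strain difference was equal between pools. For SHB17 the difference of differences was -1.25 in monosomes (unadjusted p = 0.0112) and 1.25 in heavy polysomes (unadjusted p = 0.0155), neither of which passed after adjustment.

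**Figure D5:**
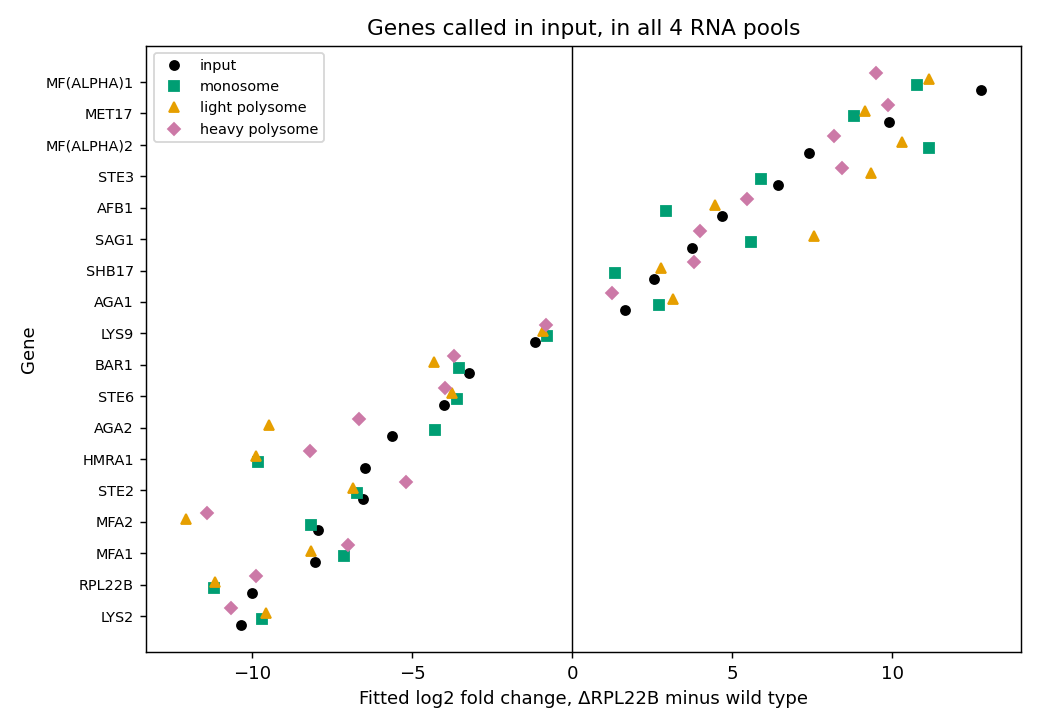
Fitted log2 fold change of ΔRPL22B against wild type for the 18 genes called in input, in input and in the 3 gradient pools. All 18 genes keep their side of 0 in every pool, and values of genes with a strain at 0 counts depend on the fit and are not bounds.

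The strain lacking RPL22A gives a second comparison against the same 2 wild-type input libraries, so that the comparisons share their controls. With the same test, 250 genes were called (4.65%) in ΔRPL22A, against 18 in ΔRPL22B. Mating-type genes, LYS2 and MET17 differed from wild type in ΔRPL22A as well. Over all pools, LYS2 had 955 counts in wild type, 0 in ΔRPL22B and 2 in ΔRPL22A. In the same order MET17 had 0, 788 and 824, MFA1 786, 3 and 4, and MF(ALPHA)1 11, 16785 and 27891. RPL22B, with 1329, 0 and 6354, went the other way in ΔRPL22A. In ΔRPL22A input, STE2 differed by -4.90 ± 0.45 and MF(ALPHA)2 by 7.03 ± 0.63. The cause of these differences was not tested. The 3 genes outside the set-apart lists had values of 3.27 ± 0.32 for SHB17, 2.65 ± 0.32 for AGA1 and -1.29 ± 0.24 for LYS9 in ΔRPL22A input, beside 2.57, 1.64 and -1.17 in ΔRPL22B. Set directly against each other, the deletion strains differed in AGA1 (-1.01 ± 0.29 in ΔRPL22B against ΔRPL22A, adjusted p = 0.038, edgeR). The direct differences were -0.70 ± 0.29 in SHB17 (adjusted p = 0.141) and 0.12 ± 0.25 in LYS9 (adjusted p = 0.8). HIS3, which was not called in ΔRPL22B, rose in ΔRPL22A (1.71 ± 0.30, adjusted p = 0.000583), with a direct difference of -1.76 ± 0.29 (adjusted p = 0.000517). In total 283 genes were called between both deletion strains (5.26%).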

How the data were processed

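The authors deposited raw counts, as whole numbers, for 24 libraries of polyA RNA (per the labels). Duplicates were biological and 2 lanes were pooled per library, per the series design. In the submitters' processing notes the build is sacCer3 and the tools are RSEM 1.2.18, SAMtools 0.1.19 and cutadapt 1.4, without their roles. No source used here states the counter or how it treated reads matching several genes.

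The table holds 6369 genes, of which 5908 matched R64 by systematic name. The deposited counts were tested with edgeR 4.0.16 (R 4.3.3), using filterByExpr (minimum count 10, minimum total 15), TMM scaling and 1 mean for each of 12 groups (12 residual degrees of freedom). Intervals of 95% come from the posterior quasi-dispersion. Alternatives used DESeq2 1.42.0, limma-voom 3.58.1, other scalings, filters and sets of libraries.

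The 29 set-apart genes, of which 21 were tested, and all lists were chosen with earlier results of these data known. Named genes are the called and set-apart genes, their neighbours, reference genes, up to 4 members of each list with the smallest p, the 6 largest uncalled differences in each direction at 10 CPM or more without overlap, and the 6 narrowest intervals. Neighbours of the mating-type genes and the pheromone and lysine genes beyond the first 4 of each list, together with YLR157C-B, were added after their values were seen.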

Additional observations from a re-analysis of the deposited data

How the results depend on the processing

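The 18 calls and the 3 outside the set-apart lists were the same genes with relative log expression scaling, without the ribosomal DNA rows, with TMM factors computed without ribosomal protein and mitochondrial genes and in limma-voom. DESeq2 called 17 of them, without HMRA1. The number outside the set-apart lists was 5 with no low-count filter (adding LIF1 and YLR157C-B), 8 in the 6 input libraries and 25 in the 4 compared libraries, where 39 genes were called in all (19 higher and 20 lower). HMRA1 was not tested there. Leaving out 1 library gave 16 to 17 calls, 1 to 3 outside the set-apart lists (YLR157C-B among them without ΔRPL22B replicate 2), and 1411 to 1676 genes bounded within 2-fold. Each such fit leaves 1 library in its group, which is assumed to vary like the other groups. The other settings bounded 2284 (DESeq2) to 3978 genes. No named result that was called in either fit changed direction.

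Same-numbered replicates of both strains did not deviate together in input (correlation -0.0387), and the 66 pairs of the 12 groups ranged from -0.569 to 0.388, with 12 over 0.1, so the numbers were not taken to pair samples. With a replicate block 18 genes were called, 3 outside the set-apart lists, 2940 were bounded within 2-fold and 14 input calls passed in all pools. The ratio of between-strain to within-strain spread was 1.06 without the filter and 1.04 without the ribosomal DNA rows. Depth limits the low genes most, and 2 libraries per strain limit every gene.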
